A study of Mus musculus with 18 samples.

Results

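The mitochondrial respiratory chain and ATP synthase were represented by 179 of the 45101 probe sets on the array, covering 90 genes. A probe set is a group of short DNA oligonucleotides that reads one transcript. Members were all probe sets annotated with a single gene symbol that begins with Nduf (complex I), Uqcr (complex III) or Atp5 (complex V), is one of the 4 Sdh genes (complex II), or begins with Cox4 to Cox8 (complex IV). The rule itself reads gene symbols only. On at least 3 of the 18 arrays, 167 of the probe sets reached the array median, and the brightest of these was taken for each gene. That left 85 genes: 42 for complex I, of which 8 are Ndufaf assembly factors, 4 for complex II, 8 for complex III, 14 for complex IV and 17 for complex V. The genes without such a probe set were Ndufb4, Ndufa4l2, Cox6b2, Cox7b2 and Cox8b, and they are not analysed further.

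The cells were RAW 264.7, an established mouse macrophage line and so a single transformed population, and all 10 macrophage markers examined were above the array median on every array. Total RNA was measured on 18 Affymetrix arrays in 6 groups of 3. Cells of the vehicle group received 0.1% DMSO. Cells of the fraction group received 10 ug/mL of a sub-fraction made from the medicinal plant Hypericum perforatum. Cells of the mixture group received 4 compounds of the plant together: 0.03 uM pseudohypericin, 0.2 uM chlorogenic acid, 0.07 uM amentoflavone and 0.08 uM quercetin. The labels give no DMSO percentage for fraction or mixture cells, with or without LPS. The other 3 groups received the same treatments with 10 ug/mL lipopolysaccharide (LPS), the bacterial cell wall component that macrophages sense through Toll-like receptor signalling. Exposure lasted 8 h in all groups, and it began in the dark, after which every plate had 30 min of ambient light. Since no label ties an array to its own culture, p-values measure the spread between these arrays, which may be technical. Signals were scaled by the authors to a common trimmed mean of 500, and array medians lay between 52.1 and 66.8.

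As background, complexes I and II pass electrons from NADH and succinate to ubiquinone, complex III passes them on to cytochrome c, and complex IV hands them to oxygen. Complexes I, III and IV pump protons as they do so, and ATP synthase (complex V) uses the proton gradient to make ATP. Most subunits are encoded in the nucleus, as all members here are, and the remainder in mitochondrial DNA. Macrophages activated with LPS are known for a shift from respiration towards glycolysis and for the use of succinate and itaconate as signals.

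Under the fraction, single respiratory chain genes changed, at about the share of all genes without LPS. The muscle isoform Cox6a2 rose 8.3-fold without LPS, and Ndufb1, Uqcrh, Sdhd and Atp5g1 fell at both LPS states. Without LPS, 22 of the 85 genes were lower and 5 higher at an adjusted p under 0.05 in limma, a linear model fitted over all genes with Benjamini-Hochberg adjustment. The share called, 31.8%, stood beside 31.2% of all 11547 genes, of which 15.9% were higher and 15.3% lower. With LPS, 11 were lower and 5 higher, 18.8% of the genes against 23.8% of all genes (11.1% higher, 12.7% lower). The groups of 3 arrays did not overlap for 32 genes without LPS (37.6%, beside 42.9% of all genes) and for 41 with LPS (48.2%, beside 36.1%). The share called was thus close to the background without LPS and below it with LPS, while the share without overlap was below it without LPS and above it with LPS. Among the 1337 genes at least as bright as the members' lower quartile, 36.9% and 27.4% were called in these comparisons. Of these genes 294 were lower and 200 higher without LPS, and 218 lower and 149 higher with LPS. The number called lower with LPS depended on single arrays: it was 6 without vehicle plus LPS array 1, 7 without fraction plus LPS array 1 or array 3, 4 without the 6 arrays numbered 1, and 5 beside 4 higher when arrays were centred on the median of all probe sets. The number called higher with LPS was 8 with the filter at the 75th percentile or with every probe set as its own row. It was larger still with the replicate number as a block.

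**Figure D1:**
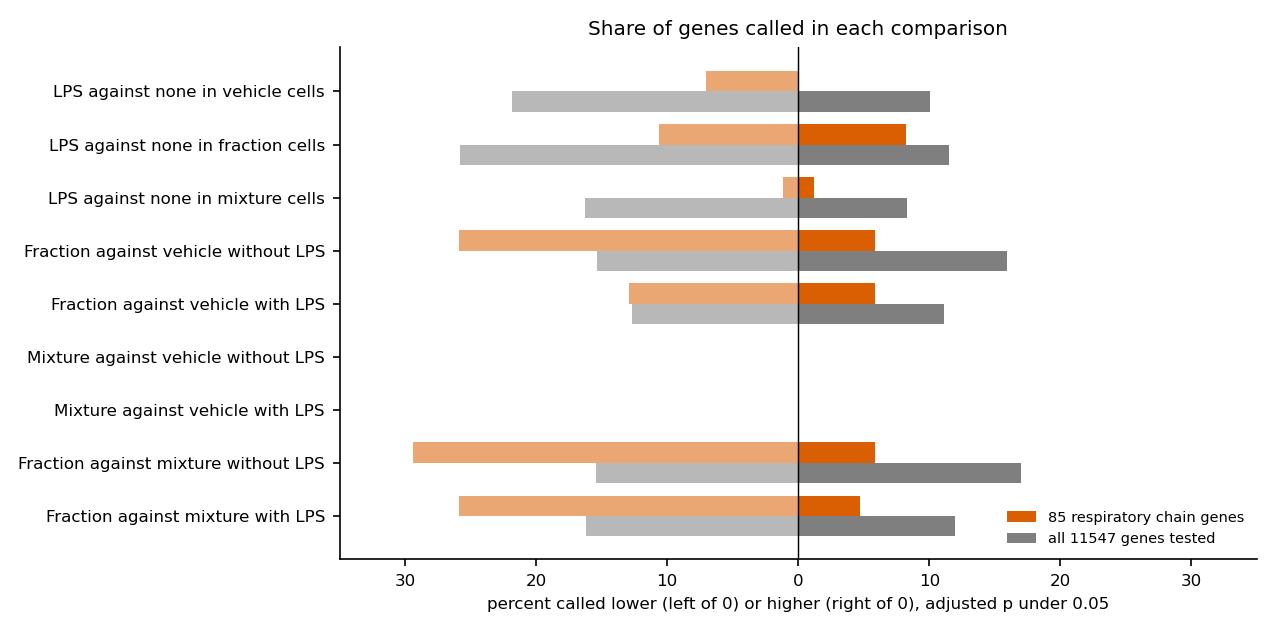
Percent of the 85 respiratory chain genes (orange) and of all 11547 genes tested (grey) called lower (left of 0) or higher (right of 0) at an adjusted p under 0.05, for 9 comparisons on the y axis. The bars for the mixture against vehicle are empty, and without LPS the fraction has 22 members lower and 5 higher.

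The differences at the 2 LPS states came from separate arrays, and 63 of the 85 genes (74.1%) had the same sign in both, beside 73.6% of all genes. A set of 10 genes were lower at both states (Ndufaf1, Ndufaf8, Ndufb1, Ndufb10, Sdhd, Uqcr11, Uqcrh, Atp5g1, Atp5j2 and Atp5k), 4 were higher at both (Ndufaf7, Uqcrq, Cox6a2 and Cox7a2l) and 0 were called in opposite directions. These were 11.8% lower and 4.71% higher at both, beside 8.17% and 7.99% of all genes. A further 13 were called without LPS only and 2 with LPS only. No member passed the test of the interaction between fraction and LPS in limma (0 of 85, against 2.14% of all genes, 0.892% higher and 1.25% lower). Unadjusted, 5 members had a p under 0.05 in that test, beside 13.6% of all genes. A difference between the LPS states was thus not shown for any member. The smallest p values were those of Ndufb6 (interaction 0.38 ± 0.11, adjusted p = 0.0922) and Ndufb1 (0.54 ± 0.20, 0.221). Across the 85 genes the Pearson correlation between the states was 0.93, 0.82 without Cox6a2, and 0.56 across all genes. It is a description, since genes are not independent replicates.

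**Figure D2:**
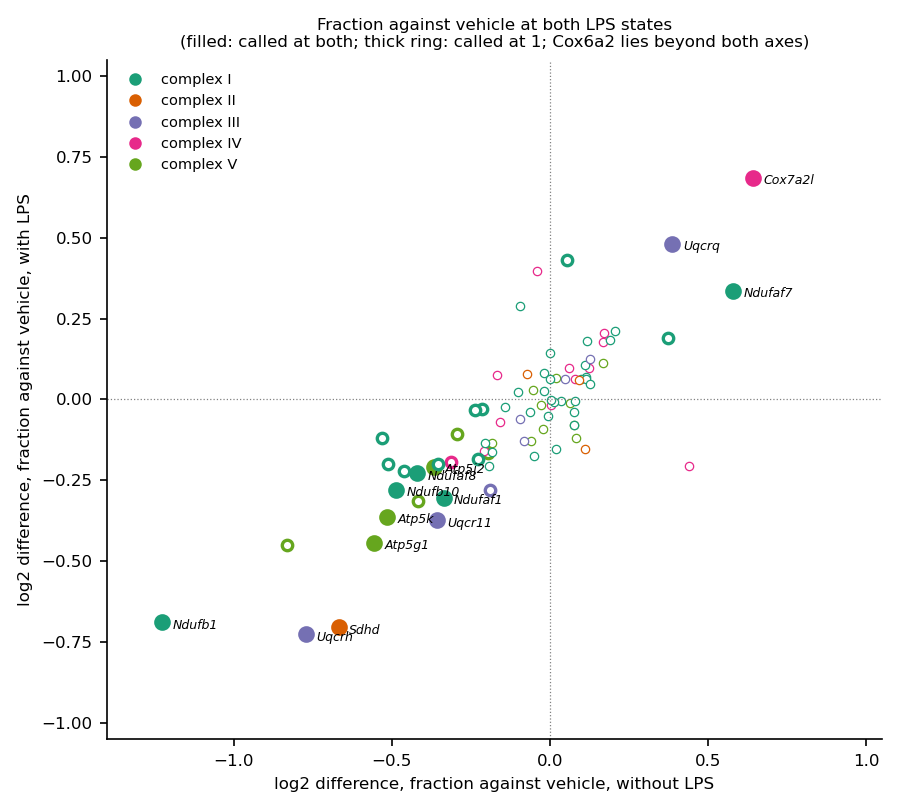
Log2 difference between fraction and vehicle without LPS (x axis) and with LPS (y axis) for each respiratory chain gene, coloured by complex; filled points were called at both LPS states and thick rings at 1 of them. The named genes lie along the diagonal, from Ndufb1 at the lower left to Cox7a2l at the upper right, and Cox6a2 lies beyond the axes at 3.05 and 2.88.

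Promoters are shown for members that were called in the same direction at both LPS states, one from each of complexes I, III, IV and V, as examples of members with calls at both states. Atp5g1, Ndufb10 and Uqcr11 were lower under the fraction and Cox7a2l was higher. Each sequence is the 250 bases before the annotated gene start, from RefSeq on mouse build GRCm38.p6, read 5′ to 3′ on the minus strand, where all 4 genes lie. The windows are chr11:96075632-96075881, chr17:24724424-24724673, chr10:80406822-80407071 and chr17:83514334-83514583 in the order Atp5g1, Ndufb10, Uqcr11 and Cox7a2l, and no other annotated gene overlaps them. Capitals mark a match to the ETS motif CCGGAAGT.
Atp5g1: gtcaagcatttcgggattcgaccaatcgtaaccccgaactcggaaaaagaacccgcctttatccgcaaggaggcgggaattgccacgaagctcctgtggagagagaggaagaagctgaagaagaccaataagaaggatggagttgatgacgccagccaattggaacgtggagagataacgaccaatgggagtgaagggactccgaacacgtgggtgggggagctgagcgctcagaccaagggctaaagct
Ndufb10: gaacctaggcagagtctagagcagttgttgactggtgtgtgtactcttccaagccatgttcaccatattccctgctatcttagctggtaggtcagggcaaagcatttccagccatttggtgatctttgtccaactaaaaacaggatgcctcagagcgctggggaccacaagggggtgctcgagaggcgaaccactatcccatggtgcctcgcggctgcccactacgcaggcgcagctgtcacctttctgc
Uqcr11: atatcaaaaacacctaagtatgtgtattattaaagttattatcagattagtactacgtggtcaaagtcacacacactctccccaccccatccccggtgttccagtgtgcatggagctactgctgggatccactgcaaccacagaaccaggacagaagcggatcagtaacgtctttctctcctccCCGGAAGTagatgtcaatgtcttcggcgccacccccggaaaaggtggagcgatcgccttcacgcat
Cox7a2l: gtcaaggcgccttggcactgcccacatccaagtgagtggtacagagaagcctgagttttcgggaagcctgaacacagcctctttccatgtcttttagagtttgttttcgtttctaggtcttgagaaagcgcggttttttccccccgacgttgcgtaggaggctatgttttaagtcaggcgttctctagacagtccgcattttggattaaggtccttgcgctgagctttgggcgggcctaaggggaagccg

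Motifs known from promoters of respiratory genes were counted on both strands in the window from 250 bases before to 50 after each gene start, for the 74 members whose promoter was in the table and for all 27025 genes in it. The NRF1 motif, searched as GCGCATGCG, was found in 9 members (12.2%) and in 1.95% of all genes. The YY1 motif AAGATGGCG was found in 7 members (9.46%) and in 1.64% of all genes, and the ETS motif CCGGAAGT in 5 members (6.76%) and in 4.31%. The letters of none of the 3 motifs occur within another. Among the 21 members with a promoter that were called lower without LPS, 3 held the NRF1 motif, 4 the YY1 motif and 2 the ETS motif, and among the 46 that were not called the numbers were 6, 3 and 3. A match describes these letters only. The lower-called Atp5g1 and Ndufb10 and the higher-called Cox7a2l held none of the 3 in the stretches shown. Uqcr11 held an NRF1 match besides the ETS match. The NRF1 match does not lie wholly within the stretch shown and is not marked there.

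The largest change of any member was that of Cox6a2, the heart and muscle isoform of a regulatory subunit of complex IV. Its intensity was 81, 92.3 and 105 in vehicle cells and 801, 897 and 629 in fraction cells. With LPS it was 78, 54.9 and 65.6 in vehicle cells and 501, 466 and 476 in fraction cells. All 6 fraction arrays lay far above every other array, and the mixture arrays stayed between 77.3 and 116. The rise was 8.3-fold without LPS (log2 difference 3.05 ± 0.19, standard error of the fit, 3 arrays a group, limma adjusted p = 7.49e-10) and 7.34-fold with LPS (2.88 ± 0.19, adjusted p = 3.92e-09), and it kept an adjusted p under 0.05 in all of the alternative settings in which it was tested. A second probe set, which was too dim to reach the median in most groups, read 5.77, 9.28 and 7.2 in vehicle and 197, 231 and 154 in fraction cells. The ubiquitous isoform of the same subunit, Cox6a1, was at 13652, 15510.2 and 16580.5 in vehicle and 16332, 17372 and 17702 in fraction cells and did not pass (0.17 ± 0.081, adjusted p = 0.116). In fraction cells LPS lowered Cox6a2 by 1.6-fold (-0.67 ± 0.19, adjusted p = 0.00875), a call lost without fraction array 2 (adjusted p = 0.0592) and with arrays centred on the median of the tested probe sets (0.0518).

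The summed intensity of the muscle markers examined ranged from 143 to 172 on the fraction arrays and from 158 to 189 on the vehicle arrays, and with LPS from 163 to 222 and from 178 to 209, so fraction and vehicle overlapped at both states. Of these markers, 1 of 3 (Acta1) was above the array median on all 18 arrays. In the RefSeq table the gene Itgad overlaps Cox6a2, and it was not among the genes tested. The next neighbour, 9130023H24Rik, was also higher under the fraction, by 0.69 ± 0.20 without LPS (adjusted p = 0.0113) and 0.77 ± 0.20 with LPS (adjusted p = 0.00728). The part of overlapping transcription in the Cox6a2 signal was not tested.

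Cox7a2l, a Cox7a-related protein that joins complexes III and IV into supercomplexes, was the other complex IV member to rise. It measured 3135, 3703 and 3939 in vehicle and 5218, 5854 and 5693 in fraction cells, and with LPS 3501, 3339.8 and 2804 and 5015, 5067 and 5354. The groups were separate at both states, with rises of 1.56-fold (0.64 ± 0.10, adjusted p = 8.03e-05) and 1.61-fold (0.68 ± 0.10, adjusted p = 7.18e-05). Its 2 other probe sets were also higher on every fraction array than on every vehicle array at the same LPS state. The catalytic core of complex IV is encoded in mitochondrial DNA and was not measured by the members. Of the structural subunits, Cox6b1, which faces the intermembrane space, fell without LPS (-0.31 ± 0.091, adjusted p = 0.0127) from 14663, 16741 and 16776 to 11173, 12622 and 15207. Its groups overlapped, and the call was lost without vehicle array 2 (adjusted p = 0.0543), vehicle array 3 (0.0515) or fraction array 1 (0.0903). Subunits Cox4i1 (0.13 ± 0.085), Cox7a1 (-0.21 ± 0.21), Cox7a2 (-0.16 ± 0.085) and Cox8a (0.0027 ± 0.084) did not pass without LPS, nor did Cox4i2, the hypoxia-related isoform, whose intensities of 13.9 to 78.3 lay around the array median.

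**Figure D3:**
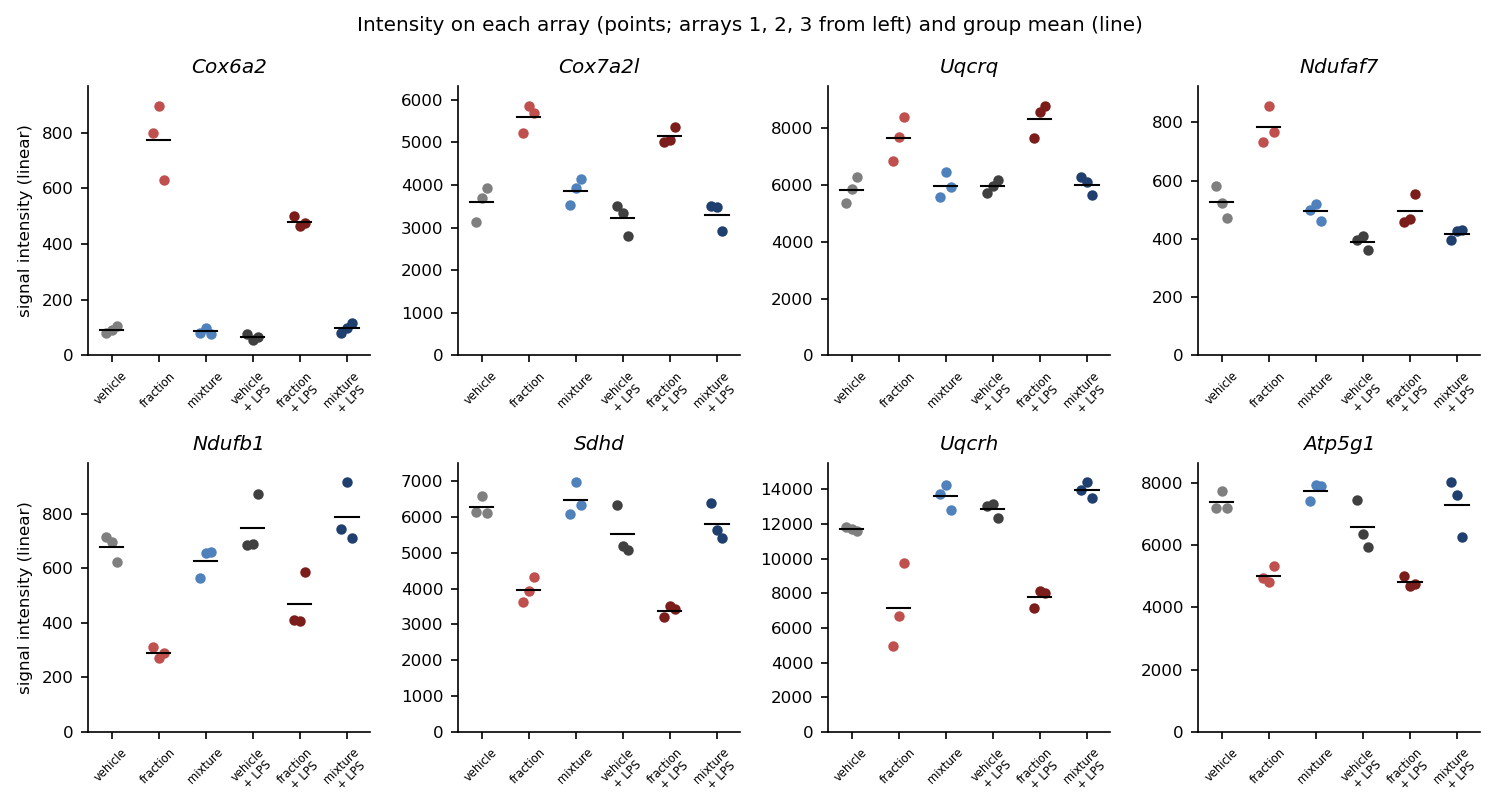
Linear signal intensity on each of the 3 arrays of the 6 groups (points) with the group mean (line) for 4 members that rose under the fraction (upper row) and 4 that fell (lower row); each y axis starts at 0. Fraction arrays stand apart from vehicle arrays at the same LPS state, most widely for Cox6a2 at 466 to 897 against 54.9 to 116 elsewhere. Across LPS states they can overlap, as for Ndufaf7.

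In complex III, Uqcrh, the hinge protein that connects cytochrome c1 with cytochrome c, fell. Vehicle cells gave 11801, 11701 and 11618 and fraction cells 4942, 6697 and 9749, and with LPS the values were 13052, 13128 and 12352 and 7161, 8120.0 and 8043. The fraction arrays without LPS spread widely among themselves, and no fraction array overlapped a vehicle array. The falls were 1.71-fold (-0.77 ± 0.14, adjusted p = 0.000409) and 1.65-fold (-0.73 ± 0.14, adjusted p = 0.00106), and a second probe set fell too, from 9553, 9197 and 9760.2 to 2988, 3271 and 6017 without LPS. Uqcr11, a small subunit at the edge of the complex, was lower, at -0.36 ± 0.10 (adjusted p = 0.01) and -0.37 ± 0.10 (adjusted p = 0.01), and the first call was lost without fraction array 1 (adjusted p = 0.0606), both without the 6 arrays numbered 1 (0.0885 and 0.123), and the second with arrays centred on the median of all probe sets (0.093). Uqcr10 passed with LPS alone (-0.28 ± 0.093, adjusted p = 0.0354), a call lost without vehicle plus LPS array 1 (adjusted p = 0.204) or any 1 of the 3 fraction plus LPS arrays (0.0577 to 0.115). Uqcrq, another small subunit of complex III, went the other way, from 5357, 5872 and 6283 to 6857, 7699 and 8378 without LPS and from 5716, 5957 and 6180.4 to 7642, 8549 and 8777 with LPS. It was higher by 0.39 ± 0.086 (adjusted p = 0.00188) and 0.48 ± 0.086 (adjusted p = 0.000431). With probe sets that share sequence between genes left out, a dimmer one stood for Uqcrq, at 0.42 (adjusted p = 0.395, no longer called) and 0.34 (adjusted p = 0.533, no longer called), and centring on the median of all probe sets also ended the call without LPS (0.13). The core subunits Uqcrc1, Uqcrc2 and Uqcrfs1 did not pass at either state.

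Complex II, which is also the succinate dehydrogenase of the tricarboxylic acid cycle, changed in a single subunit. Sdhd, one of the membrane anchors that hold the ubiquinone site, measured 6145, 6584 and 6114 in vehicle and 3629, 3931 and 4324 in fraction cells, and 6338, 5194 and 5067 and 3209, 3511 and 3420.1 with LPS. Every fraction array was below every vehicle array, with falls of 1.59-fold (-0.67 ± 0.093, adjusted p = 1.9e-05) and 1.63-fold (-0.70 ± 0.093, adjusted p = 1.87e-05). The flavoprotein Sdha was at 0.11 ± 0.085 and -0.15 ± 0.085, the iron-sulfur protein Sdhb at 0.093 ± 0.069 and 0.062 ± 0.069, and the other anchor Sdhc at -0.073 ± 0.11 and 0.079 ± 0.11, none of which passed. Timm8b, a chaperone of the intermembrane space and the neighbour of Sdhd in the RefSeq table, was lower as well (-0.41 ± 0.10, adjusted p = 0.00496, and -0.29 ± 0.10, adjusted p = 0.0486).

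In complex I, 11 of 42 genes were lower and 2 higher without LPS, and 4 lower and 2 higher with LPS, 31% and 14.3% called beside 31.2% and 23.8% of all genes. The 8 assembly factors, which help to build the complex but do not stay in it, held 4 of the lower calls and 1 higher call without LPS. They were called at 62.5% without LPS and 37.5% with LPS, with median differences of -0.26 and -0.16. The other 34 genes were called at 23.5% and 8.82%, with medians of -0.0034 and -0.0050. Ndufb1, an accessory subunit of the membrane arm, fell most. Its intensity was 714, 698 and 624 in vehicle and 312, 271 and 288 in fraction cells, and 685, 688 and 871 and 410.3, 407 and 585 with LPS. The groups were separate, at 2.34-fold (-1.23 ± 0.14, adjusted p = 2.62e-06) and 1.61-fold (-0.69 ± 0.14, adjusted p = 0.00157). Ndufb10, another membrane arm subunit, fell from 3603, 3749 and 3585 to 2504, 2494 and 2825 without LPS (-0.49 ± 0.091, adjusted p = 0.000424). Accessory subunits Ndufa5 (-0.51 ± 0.10, adjusted p = 0.000604) and Ndufc1 (-0.36 ± 0.073, adjusted p = 0.000955) were lower without LPS and did not pass with LPS, as were Ndufa3 (-0.23 ± 0.075, 0.0276), Ndufb3 (-0.22 ± 0.077, 0.04) and Ndufb7 (-0.24 ± 0.084, 0.0383). The 42 genes ranged from -1.23 to 0.58 without LPS and from -0.69 to 0.43 with LPS.

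Among the assembly factors, Ndufaf2 (-0.53 ± 0.16), Ndufaf4 (-0.46 ± 0.11), Ndufaf8 (-0.42 ± 0.079) and Ndufaf1 (-0.34 ± 0.094) were lower without LPS, with adjusted p of 0.0167, 0.00284, 0.000424 and 0.00983. The Ndufaf2 call was lost without vehicle array 3 (adjusted p = 0.0693) or fraction array 3 (0.0875). Ndufaf7, a mitochondrial methyltransferase, rose from 579.9, 524 and 472 to 731, 856 and 765 without LPS (0.58 ± 0.11, adjusted p = 0.000484). With LPS it was at 398, 410.4 and 363 in vehicle and 457, 469.8 and 555 in fraction cells (0.34 ± 0.11, adjusted p = 0.0322). Ndufv1, which binds NADH, was the only core subunit of complex I called under the fraction, and it was higher without LPS, at 3485, 3889 and 3647 in vehicle and 4936, 4758 and 4567 in fraction cells (0.37 ± 0.084, adjusted p = 0.002), a call lost with arrays centred on the median of all probe sets (0.224) and without the 6 arrays numbered 1 (0.065). Calls with LPS were lost when single arrays were left out. That of Ndufaf1 was lost without vehicle plus LPS array 1 or fraction plus LPS array 1 or 3 (adjusted p up to 0.124), and that of Ndufaf7 without vehicle plus LPS array 1 or 3 or fraction plus LPS array 3 (up to 0.165). That of Ndufaf8 was lost without vehicle plus LPS array 1 or 3 or any fraction plus LPS array (up to 0.155), and that of Ndufb10 without vehicle plus LPS array 1 or 2 or fraction plus LPS array 2 or 3 (up to 0.134). Ndufb6 was called with LPS only, at 5480.0, 5901 and 5887 in vehicle and 7639, 7964 and 7686 in fraction cells (0.43 ± 0.079, adjusted p = 0.000503), and a second probe set restricted to its own sequence gave 0.057 (adjusted p = 0.679).

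In complex V, 7 of 17 genes were lower without LPS, 3 with LPS, and 0 were higher at either state, 41.2% and 17.6% called beside the same shares of all genes (31.2% and 23.8%). Mature c subunit, the protein of the rotor ring, is made from 3 genes. Of these, Atp5g1 fell from 7175, 7727 and 7180.1 to 4925, 4805 and 5309 without LPS and from 7449, 6357 and 5930.3 to 4998, 4696 and 4758 with LPS. It was the member of the trio that was separate from vehicle at both states (-0.55 ± 0.091, adjusted p = 0.000117, and -0.44 ± 0.091, adjusted p = 0.00143). Atp5g2 was at 0.063 ± 0.074 and -0.011 ± 0.074 and did not pass. Atp5g3 passed without LPS (-0.20 ± 0.071, adjusted p = 0.0429), with overlapping arrays and a call lost without vehicle array 2 or 3 or fraction array 1 or 2 (adjusted p from 0.086 to 0.204). The differences between the 3 genes themselves were not tested.

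Small subunits of the membrane part of ATP synthase were among the genes called lower. Atp5k (subunit e) measured 7985, 8518 and 9277 in vehicle and 5549, 5635 and 6913 in fraction cells (-0.52 ± 0.083, adjusted p = 9.47e-05), and with LPS it was lower too, at -0.36 ± 0.083 (adjusted p = 0.00318), a call lost without the 6 arrays numbered 1 (0.0572). Atp5j2 (subunit f) was lower, at -0.37 ± 0.07 (adjusted p = 0.000512) and -0.21 ± 0.07 (adjusted p = 0.0373), the second of which was lost without vehicle plus LPS array 1 or 3 or fraction plus LPS array 1 or 2 (adjusted p from 0.0829 to 0.119). Atp5md, a component needed for ATP synthase dimers, went from 5172, 7368 and 6167 to 2886, 3967 and 3647 (-0.83 ± 0.18, adjusted p = 0.00157), a group of fraction arrays wholly below the vehicle arrays although both spread widely. Atp5mpl (-0.42 ± 0.12, adjusted p = 0.0109) and the stalk subunit Atp5j (-0.29 ± 0.065, adjusted p = 0.00174) were also lower without LPS, and the Atp5mpl call was lost without vehicle array 3 (adjusted p = 0.059) or fraction array 1 or 2 (0.0521 and 0.0676). The catalytic head subunits Atp5a1 and Atp5b and the central stalk subunit Atp5c1 did not pass at either state.

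**Figure D4:**
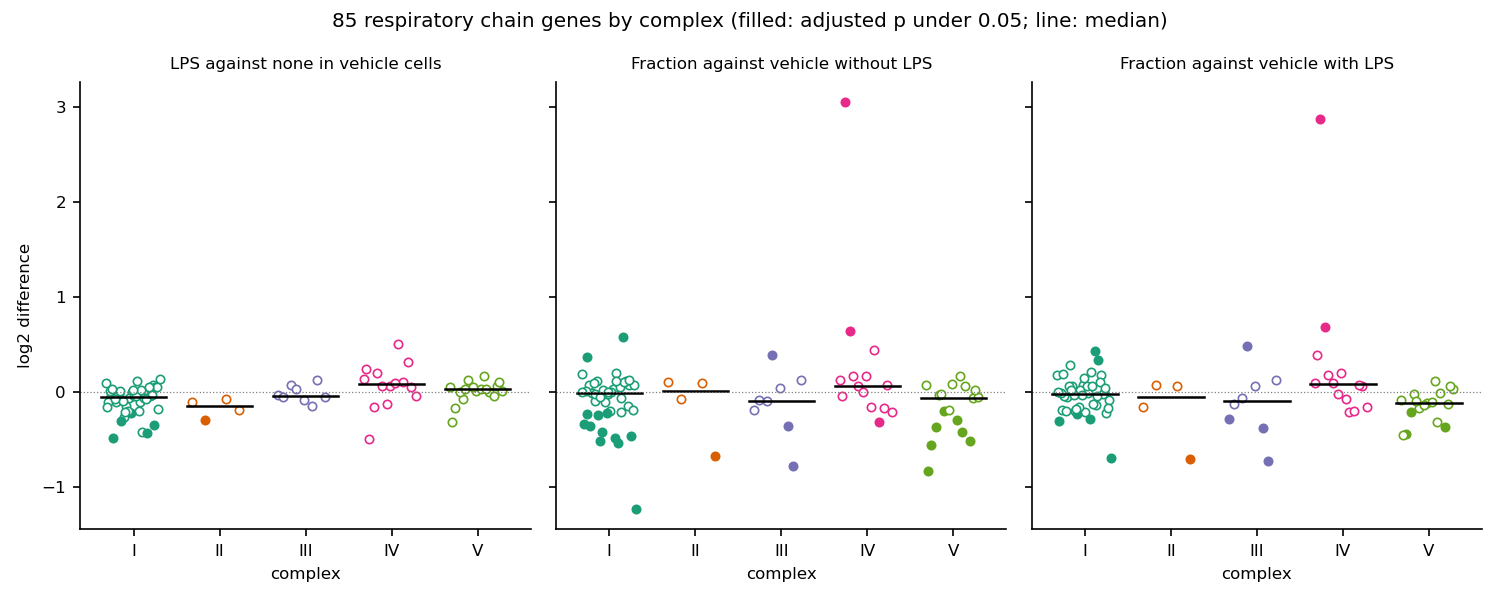
Log2 difference (y axis) of each of the 85 genes by complex (x axis) under LPS alone, under the fraction alone and under the fraction in LPS-treated cells; filled points have an adjusted p under 0.05 and the line is the median. Medians lie close to 0 in all panels, and Cox6a2 stands alone at the top of complex IV under the fraction.

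By complex, the median log2 differences between fraction and vehicle without LPS were -0.012, 0.0099, -0.087, 0.07 and -0.058 for complexes I, II, III, IV and V, beside 0.018 over all genes. With LPS they were -0.015, -0.045, -0.095, 0.086 and -0.12, beside -0.017. Without LPS, leaving out 1 array moved them over -0.057 to 0.016, -0.032 to 0.032, -0.12 to -0.049, -0.0029 to 0.13 and -0.17 to -0.030, so complexes I, II and IV had no settled sign. With LPS only that of complex I changed sign (-0.036 to 0.016). The mean log2 level of a complex, taken on each array over its genes at or above the mean array median, is given relative to vehicle cells, without a test. Complex V was at -0.18 ± 0.12 (SD, n = 3) in fraction cells, 0.0084 ± 0.026 in vehicle cells with LPS and -0.13 ± 0.021 in fraction cells with LPS. Complex II, of 4 genes, was at -0.13 ± 0.065, -0.16 ± 0.038 and -0.34 ± 0.039 in the same order, and every array of the last group lay below those of the other 5 groups. Of its genes only Sdhd was called for fraction against vehicle, at -0.67 without LPS and -0.70 with LPS. Complex IV was at 0.26 ± 0.082 and 0.36 ± 0.043 in fraction cells without and with LPS, but at 0.03 ± 0.10 and 0.19 ± 0.044 without Cox6a2. Also without Cox6a2, it was at 0.081 ± 0.034 in vehicle cells with LPS. Mixture cells were then at 0.13 ± 0.066 without LPS and 0.17 ± 0.029 with LPS. In the order given for complex V, complex I with its assembly factors was at -0.088 ± 0.023, -0.089 ± 0.065 and -0.11 ± 0.023. Complex III was at -0.12 ± 0.15, -0.015 ± 0.053 and -0.13 ± 0.028. Levels of complex II without Sdhd and of complex III without Uqcrh were not computed. In bulk RNA a smaller share of cells and less RNA per cell cannot be told apart, and these are levels relative to all other transcripts on the array.

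**Figure D5:**
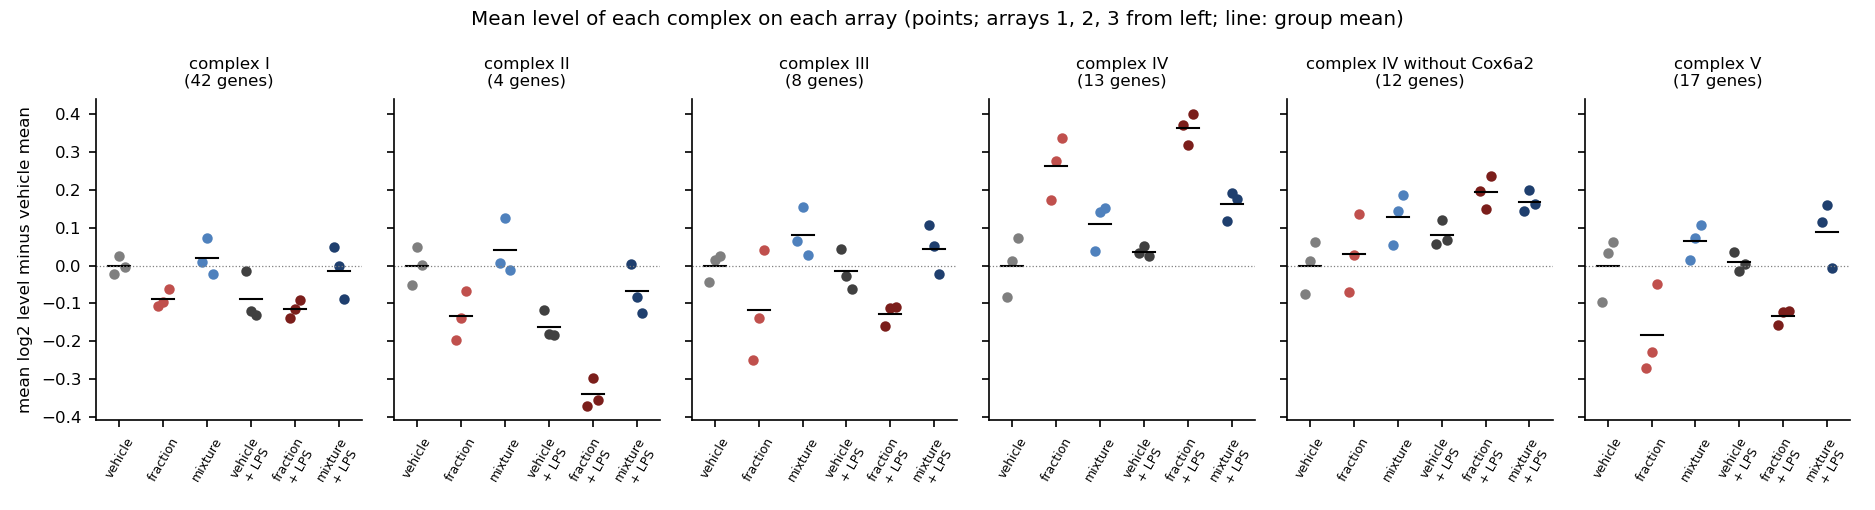
Mean log2 level of each complex on each array (points) minus the mean of the vehicle arrays, with the group mean (line), for the 6 groups; complex IV is shown with and without Cox6a2. Complex II is lowest in fraction cells with LPS, at -0.30 to -0.37, and complex IV lies highest under the fraction where Cox6a2 is included. The level of complex II includes Sdhd, its only gene called for fraction against vehicle.

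With arrays scaled as deposited, LPS alone was followed by few calls among these genes. In vehicle cells 6 of 85 were lower and 0 higher (7.06%), beside 31.9% of all genes, of which 10.1% were higher and 21.8% lower. Of the 1337 genes at least as bright as the members' lower quartile, 29.3% were called, 259 higher and 133 lower. The arrays did not overlap for 16 members, beside 41.5% of all genes. Unadjusted, 15 members had a p under 0.05 in limma, 2 higher and 13 lower, beside 40.6% of all genes. The genes called were assembly factors Ndufaf6 (-0.49 ± 0.12, adjusted p = 0.00428), Ndufaf7 (-0.43 ± 0.11, 0.00575) and Ndufaf3 (-0.30 ± 0.10, 0.0207), the complex I subunits Ndufs7 (-0.35 ± 0.08, 0.00214) and Ndufb3 (-0.22 ± 0.077, 0.039), and Sdhc (-0.29 ± 0.11, 0.0445). Ndufs7 carries the iron-sulfur cluster that hands electrons to ubiquinone, and it went from 4684, 4753 and 4398 to 4048, 3424 and 3415. No gene of complexes III, IV or V was called. The direction depended on the scaling: with arrays centred on the median of the tested probe sets the members were 21 higher and 0 lower, and with quantile normalization 0 higher and 17 lower. The shares of all genes called under these 2 scalings were not computed. The median of all genes, -0.075 as deposited, moved to 0.11 under that centring and to -0.21 under centring on all probe sets, so differences of this size with LPS have no settled sign. The count lower was 11 without vehicle plus LPS array 1, 3 without vehicle array 2 and 10 without the 6 arrays numbered 1. The Sdhc call was lost without vehicle plus LPS array 1 (adjusted p = 0.286) and without vehicle array 2 (0.123) or 3 (0.107), and that of Ndufaf3 without vehicle array 2 (0.0934) or vehicle plus LPS array 2 (0.126) or 3 (0.0714).

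In fraction cells LPS was followed by 9 lower and 7 higher calls among the 85 genes (18.8%), beside 37.3% of all genes, 11.5% higher and 25.8% lower. Arrays of the groups compared did not overlap for 31 members, beside 49.1% of all genes. Centring on the tested probe sets gave 40 higher and 3 lower, centring on all probe sets 3 higher and 6 lower, and quantile normalization 4 higher and 27 lower. Shares of all genes called under these scalings were not computed, so these counts have no background beside them. The count higher was 4 without fraction array 2 and 14 without fraction array 3. The largest falls were in Cox6a2, above, and in Ndufaf7 (-0.67 ± 0.11, adjusted p = 8.19e-05) and Ndufaf6 (-0.60 ± 0.12, adjusted p = 0.000579). Among the higher genes, Ndufb1 rose (0.67 ± 0.14, adjusted p = 0.00105) and remained below its level in vehicle cells with LPS. Cox8c, a testis isoform, rose from 132, 189 and 159.7 to 229, 255 and 284 (0.68 ± 0.20, adjusted p = 0.0104), a call lost without fraction array 1 (0.0591). Core subunits Sdha (-0.36 ± 0.085, adjusted p = 0.0022) and Ndufs1 (-0.37 ± 0.09, adjusted p = 0.00302) were lower, and Sdha lost its call under centring on the tested probe sets (0.123). In mixture cells 1 gene was lower, Ndufs7 (-0.28 ± 0.08, adjusted p = 0.0131), and 1 higher, Cox8c (0.60 ± 0.20, adjusted p = 0.0331), 2.35% of the members beside 24.6% of all genes (8.32% higher, 16.3% lower), and 13 members did not overlap, beside 40.3%. Centring on the tested probe sets made these 0 lower and 5 higher, and quantile normalization 3 lower and 1 higher, and both calls were lost when single arrays were left out (adjusted p up to 0.0808 for Ndufs7, without mixture plus LPS array 2, and 0.191 for Cox8c, without mixture plus LPS array 3).

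The mixture of 4 compounds changed no member beyond the threshold at either LPS state (0 of 85 in limma, beside 0% of all genes). At an unadjusted p under 0.05 there were 11 without LPS, 10 of them higher, and 4 with LPS, all higher, beside 4.89% and 8.09% of all genes. Groups did not overlap for 10 and 16 members, beside 8.31% and 12.6% of all genes. The smallest p without LPS belonged to Cox7a2 (0.26 ± 0.085, adjusted p = 0.814), Cox6a1 (0.24 ± 0.081, 0.82) and Atp5a1 (0.19 ± 0.067, 0.85). For 80 of the 85 genes without LPS and 79 with LPS the 95% interval of the difference lay inside a change of 1.5-fold either way. Cox6a2, raised by the fraction, was at 81.5, 99.5 and 77.3 in mixture cells, at -0.11 ± 0.19 from vehicle without LPS and 0.57 ± 0.19 with LPS (adjusted p = 0.588). Against the mixture the fraction had 25 lower and 5 higher genes without LPS (35.3%, beside 32.4% of all genes, 17% higher and 15.4% lower) and 22 lower and 4 higher with LPS (30.6%, beside 28.2%, 12% higher and 16.2% lower). Of the 1337 genes at least as bright as the members' lower quartile, 394 were lower and 172 higher without LPS (42.3% called). With LPS 293 of these genes were lower and 165 higher (34.3% called). Groups did not overlap for 36 and 41 members, beside 44.7% and 42.8% of all genes. These comparisons use the same fraction arrays as those against vehicle and are given beside them. Uqcrh was at -0.99 ± 0.14 and -0.85 ± 0.14, Sdhd at -0.71 ± 0.093 and -0.78 ± 0.093, Atp5g1 at -0.63 ± 0.091 and -0.59 ± 0.091, Cox7a2l at 0.53 ± 0.10 and 0.65 ± 0.10, and Cox6a2 at 3.16 ± 0.19 and 2.31 ± 0.19, all with an adjusted p under 0.05. The count lower with LPS was 14 without fraction plus LPS array 1 or mixture plus LPS array 1, and 11 without the 6 arrays numbered 1.

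Other mitochondrial genes were read from 5 lists, whose shares called stand beside 31.2% of all genes for the fraction without LPS and 23.8% with LPS. Of 76 proteins of the mitochondrial ribosome, which translates the subunits encoded in mitochondrial DNA, 30 were lower and 4 higher under the fraction without LPS, and 18 lower and 5 higher with LPS. That was 44.7% and 30.3% called, with medians of -0.16 and -0.11. Mrps21 (-1.55 ± 0.094, adjusted p = 4.91e-10), Mrpl18 (-1.52 ± 0.13, 2.67e-08) and Mrpl34 (-1.18 ± 0.11, 1.37e-07) fell most, and the fall of Mrps21 was smaller with LPS (-0.58 ± 0.094; interaction 0.97 ± 0.13, adjusted p = 0.000541). With LPS the count lower was 11 with arrays centred on the median of all probe sets and 11 without the 6 arrays numbered 1. Of 34 genes of import, carriers and membrane, 12 were lower and 2 higher without LPS, and 8 lower and 3 higher with LPS, the last becoming 0 lower and 1 higher under centring on all probe sets, and 1 lower without the 6 arrays numbered 1 (41.2% and 32.4% called, medians -0.091 and -0.078). The small Tim chaperones Timm9 (-0.77 ± 0.12, adjusted p = 7.34e-05) and Timm10 (-0.41 ± 0.072, 0.000244) fell, whereas the matrix chaperone Hspa9 rose (0.44 ± 0.064, 3.39e-05).

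Of 20 genes of mitochondrial genome upkeep and biogenesis, 4 were higher and 3 lower under the fraction without LPS, and 5 and 3 with LPS (35% and 40% called, medians 0.066 and 0.090). Lonp1, the matrix protease that degrades damaged proteins, was higher by 2.1-fold (1.07 ± 0.088, adjusted p = 2.67e-08) and 1.88-fold (0.91 ± 0.088, adjusted p = 4.76e-07), Tfb1m, which modifies mitochondrial ribosomal RNA, by 0.60 ± 0.12 and 0.92 ± 0.12, and the mitochondrial DNA packaging factor Tfam by 0.30 ± 0.083 and 0.51 ± 0.083. Of 39 electron carriers, assembly factors and regulators, 7 were higher and 5 lower without LPS, and 5 and 4 with LPS (30.8% and 23.1% called, medians 0.013 and 0.0070). The copper chaperone Cox19 (-0.83 ± 0.11, adjusted p = 1.21e-05) and the complex IV assembly factor Cox20 (-0.75 ± 0.11, 3.15e-05) fell, and Bcs1l, which inserts the Rieske protein into complex III, rose (0.58 ± 0.16, 0.00956). Of 26 genes of the tricarboxylic acid cycle and pyruvate entry, 3 were higher and 5 lower without LPS and 1 and 5 with LPS (30.8% and 23.1% called, medians 0.057 and -0.031). Dld, shared by the pyruvate and oxoglutarate dehydrogenases, rose (0.74 ± 0.084, 1.74e-06), and the phosphatase Pdp2 fell (-1.11 ± 0.17, 4.73e-05).

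With LPS in vehicle cells 6 of the 20 biogenesis genes were called lower and 0 higher (30%, beside 31.9% of all genes, 21.8% lower), and Ppargc1b, a coactivator of respiratory genes, was 3.95-fold lower (-1.98 ± 0.19, adjusted p = 1.65e-07), and at -1.80, -2.11 and -1.84 under centring on the tested probe sets, centring on all probe sets and quantile normalization. With arrays centred on the tested probe sets the list became 2 higher and 3 lower. The ribosomal list had 2 higher and 23 lower (10 and 5 under that centring), the import list 1 and 1 (11 and 0), the electron carrier list 3 and 8 (5 and 4) and the tricarboxylic acid cycle list 3 and 5 (6 and 2), so these directions also move with the scaling. Acod1, which makes itaconate, an inhibitor of succinate dehydrogenase, rose from 1471, 2598 and 2991 to 20885, 20814 and 19030.5 with LPS (3.17 ± 0.19, adjusted p = 4.6e-10). Without LPS it was lower under the fraction, at 584, 1013 and 835 (-1.51 ± 0.19, adjusted p = 6.53e-06), and with LPS the fraction and vehicle arrays overlapped, at 23452, 20362 and 23128 in fraction cells. AA467197, which encodes a relative of the complex IV subunit Ndufa4 known to appear in inflamed macrophages, was at 32.7, 31.5 and 49.5 in vehicle cells with LPS, 81.6, 187 and 144 in fraction cells with LPS and 11.8, 2.25 and 4.03 in mixture cells with LPS. It was called against the mixture (at least 2.24-fold higher, counting the dimmer group at the array median, adjusted p = 0.00953, and 0.058 without fraction plus LPS array 2) and not against vehicle (adjusted p = 0.353), although all 3 fraction arrays were the highest. AA467197 reached the array median on the fraction plus LPS arrays only. It thus passed the filter through the group where it is high, and the call is not independent of that choice. Ndufa4 itself, counted here with complex I by its name, was at -0.21 ± 0.083 and -0.14 ± 0.083 under the fraction and did not pass.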

How the data were processed

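RNA from 18 samples of RAW 264.7 cells was read on 1-colour arrays. The authors deposited 1 linear signal intensity per probe set and array, made with MAS5 per the submitters' processing notes, and every array had a trimmed mean (2%) of 500. With 3 arrays a group, the number of arrays limits the precision. Intensities below 1 were set to 1 and log2 was taken. Probe sets at or above the array median on at least 3 arrays were kept, and the brightest stood for each gene. One limma model (limma 3.58.1, R 4.3.3) with 6 group means, an intensity trend and 12 residual degrees of freedom gave 11 comparisons, Benjamini-Hochberg adjusted over all genes tested. The ± values are standard errors of the fit, except SD where stated. Where a group was wholly under the array median, a fold is given as at least the bright group over that median.

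Members and lists were chosen with earlier results of these data known. Named were up to 4 called genes per complex and direction with the largest change and no overlap of arrays (up to 3 over all complexes in the comparisons other than LPS alone and fraction against vehicle, or the 3 smallest p), the Sdh and c subunit genes, the isoform pairs of complex IV, Ndufa4, AA467197, up to 3 called genes per list, and the 5 genes most correlated with the members. Other genes were named after their values were seen. Probe sets with several platform symbols were left out. Alternatives covered the offset, scaling, filter, probe sets, trend, arrays fitted, replicate block and each array left out. Centring on all probe sets and leaving out the 6 arrays numbered 1 were chosen after seeing the data. The motif letters searched in RefSeq promoters were also chosen then.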

Additional observations from a re-analysis of the deposited data

How the results depend on the processing

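Over all settings in which a gene was tested, 38 of the 70 calls named among the members kept their direction and an adjusted p under 0.05, 31 lost the threshold in at least 1 and 3 changed sign in at least 1, and the causes were not tested. The calls of Cox6a2, Cox7a2l, Uqcrh, Sdhd, Ndufb1 and Atp5g1 for the fraction against vehicle held at both LPS states in every setting that tested them. Cox7a2l and Atp5g1 had no probe set in the setting with unique probe sets only and were not tested there. The members' counts and medians that moved are given by setting, as log2 for medians. For the alternative settings the share of all genes called was not computed. With the filter at the 75th percentile, fraction against vehicle with LPS had 8 higher, LPS in mixture cells had 0 higher. With arrays centred on the median of all probe sets, fraction against mixture had 3 higher, fraction against vehicle with LPS had 5 lower, fraction against vehicle had 3 higher, LPS in fraction cells had 3 higher, LPS in mixture cells had 0 lower. Medians there were -0.14, -0.12, -0.21, -0.056, -0.18 for complex I, II, III, IV, V under fraction against vehicle, and -0.18, -0.28, -0.17, -0.047, -0.10 for complex I, II, III, IV, V under LPS in vehicle cells. With arrays centred on the median of the tested probe sets, LPS in fraction cells had 40 higher and 3 lower, LPS in mixture cells had 5 higher and 0 lower, LPS in vehicle cells had 21 higher and 0 lower. Medians there were 0.14, 0.041, 0.14, 0.27, 0.21 for complex I, II, III, IV, V under LPS in vehicle cells. With every probe set as its own row, fraction against mixture with LPS had 7 higher, fraction against vehicle with LPS had 8 higher, LPS in mixture cells had Cox8c at -0.12 and 2 higher, LPS in vehicle cells had Sdhc at 0.031 and Tomm70a at -0.23 and 1 higher. Medians there were -0.080 for complex II under LPS in vehicle cells. With no filter, LPS in mixture cells had 0 higher. With only the compared arrays fitted, fraction against vehicle with LPS had 7 lower, LPS in mixture cells had 0 higher. With quantile normalization, LPS in fraction cells had Cox6a1 at -0.13 and 4 higher and 27 lower, LPS in mixture cells had 3 lower, LPS in vehicle cells had Cox6a1 at -0.15 and 17 lower. Medians there were 0.0052 for complex IV under fraction against vehicle with LPS, and -0.15, -0.24, -0.13, -0.10, -0.13 for complex I, II, III, IV, V under LPS in vehicle cells. With unique probe sets only, fraction against mixture with LPS had Ndufb6 at -0.081, fraction against mixture had 2 higher, fraction against vehicle had 2 higher, LPS in mixture cells had 2 higher, LPS in vehicle cells had Tomm70a at -0.23 and 1 higher. Medians there were -0.15, -0.041 for complex II, IV under fraction against vehicle with LPS, and 0.093, -0.34, -0.042, -0.18 for complex II, III, IV, V under fraction against vehicle, and -0.10, 0.072 for complex I, III under LPS in vehicle cells. Without the 6 arrays numbered 1, fraction against mixture with LPS had 11 lower, fraction against vehicle with LPS had 4 lower, LPS in mixture cells had 4 lower, LPS in vehicle cells had 10 lower. Medians there were 0.049 for complex I under fraction against vehicle with LPS, and -0.11, 0.025 for complex I, IV under LPS in vehicle cells. The arrays share numbers across groups, and their deviations from the group means were correlated between groups. Among arrays of the other groups, each of the 18 correlated best with one of its own number, so same-numbered arrays may share a batch. These correlations were small, at 0.018 to 0.17 with 9 of 45 pairs over 0.1. The labels do not say what a number shares, and the main fit had no block. With the replicate number as a block, fraction against vehicle with LPS had 9 higher, LPS in mixture cells had 2 higher, LPS in vehicle cells had 1 higher. With each array left out in turn, members called ranged as fraction against mixture with LPS 4 to 5 higher and 14 to 20 lower, fraction against mixture 4 to 6 higher and 20 to 25 lower, fraction against vehicle with LPS 4 to 6 higher and 6 to 10 lower, fraction against vehicle 5 to 7 higher and 15 to 23 lower, LPS in fraction cells 4 to 14 higher and 8 to 10 lower, LPS in mixture cells 0 to 1 higher and 0 to 2 lower, LPS in vehicle cells 0 to 1 higher and 3 to 11 lower, and stayed 0 for the mixture against vehicle and both interactions. Medians of complexes I, II, III, IV and V then ranged under fraction against vehicle with LPS -0.036 to 0.016, -0.092 to -0.034, -0.13 to -0.062, 0.071 to 0.11, -0.14 to -0.10, and under fraction against vehicle -0.057 to 0.016, -0.032 to 0.032, -0.12 to -0.049, -0.0029 to 0.13, -0.17 to -0.030, and under LPS in vehicle cells -0.086 to -0.039, -0.16 to -0.10, -0.059 to -0.0038, 0.018 to 0.13, -0.0040 to 0.052.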

Other observations

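Probe sets shared by several symbols were left out of the members, and 8 of 10 such probe sets reached the filter. Under the fraction without LPS, one read jointly by Ndufb4, Ndufb4b and Ndufb4c was lower (-0.25, limma adjusted p = 0.0214) and the other for these symbols did not pass (-0.18, adjusted p = 0.133). One read by Ndufs6 and Ndufs6b was lower (-0.24, adjusted p = 0.0138). With LPS none of these 3 passed (adjusted p = 0.182, 0.0743 and 0.144). Of the members, 50 had more than 1 probe set at the filter, and 0 were called in both directions by different probe sets in any comparison. All probe sets of a gene had the same sign for 37 of the 50 under the fraction without LPS, 31 with LPS and 28 under LPS in vehicle cells. Over the 18 arrays, the genes outside the members whose log2 values correlated most with the members' mean were Gm12338 (Pearson r = 0.86), the spliceosome components Snrpg (0.85) and Snrpe (0.81), the elongin subunit Elob (0.83) and Prelid1 (0.81), a carrier of phospholipid into mitochondria. These correlations describe arrays that share groups and scaling.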
